A study of Mus musculus with 9 samples.

Results

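Snhg20 and 9 other long noncoding genes that host small nucleolar RNAs (snoRNAs) in their introns were followed through 9 RNA-sequencing libraries of mouse cells. The set held Snhg20, Snhg1, Snhg3, Snhg5, Snhg6, Snhg8, Snhg12, Snhg15, Snhg17 and Gas5, that is 10 of the 56289 genes in the expression table, and all 10 were among the 25417 genes above 0 in at least 3 libraries that were tested. Snhg20 was chosen on its own values, a fall with TNF-α and a rise with WBT, so its differences are given below as a description and without a test. The other 9 genes were chosen by their class, though with earlier results of these data known. Their tests come from a model fitted to every gene.

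The 9 libraries came from the mouse macrophage-like line RAW264.7 (strain given as BALB/c), a line usually grown as a model of macrophages. There were 3 untreated libraries (Con), 3 from cultures stimulated with TNF-α (TNF-α group) and 3 from cultures given TNF-α together with WBT, a tablet of herbal extracts that the sample labels abbreviate WBP (TNF-α+WBT group). Stimulation lasted 24 h, poly(A) RNA was sequenced as paired-end libraries, and the authors deposited FPKM, a measure of abundance that divides fragments by transcript length and by library depth. The comparison of TNF-α with Con asks what the cytokine changed, and that of TNF-α+WBT with TNF-α asks what the tablet changed in its presence, with the same 3 TNF-α libraries on one side of both.

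Depth was estimated from the size of the smallest steps in the values. The estimates were 20215263 to 26047920 fragments in Con, 18801524 to 22419652 in TNF-α and 16843047 to 19795169 in TNF-α+WBT. At these depths, only 58.1% to 61.2% of the values used per library lay close to a whole number of fragments. The search for depth was also given an upper limit, since a higher depth can fit steps made by single reads of a pair. The depths, and the fragment counts below that rest on them, are therefore approximate and depend on that limit. The cell type of the label was not borne out by its markers. Of 18 macrophage genes, 8 were listed at 0 in every library, among them Ptprc, Spi1, Itgam, Adgre1 and Tyrobp, and only Cd14 lay above 1 FPKM in all 9. In contrast, 15 of 18 fibroblast genes and 8 of 12 Schwann cell genes lay above 1 FPKM in all libraries. The summed level of the Schwann cell genes was 926 to 983 FPKM in Con, 751 to 813 in TNF-α and 818 to 847 in TNF-α+WBT. This sum was thus lowest in the group where Snhg20 was lowest. The fibroblast genes summed to 6054 to 6423 FPKM in Con, 6282 to 6565 in TNF-α and 6258 to 6355 in TNF-α+WBT. The macrophage genes summed to 6.14 to 7.50, 7.11 to 8.21 and 7.24 to 8.89 FPKM in the same order. For both of these lists the ranges of the groups overlapped. The part of these sums in the results below was not tested. In bulk RNA, fewer cells of a type and less RNA per cell cannot be told apart. The labels do not say that the libraries of a group came from separate cultures, so the spread between them may be partly technical.

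A snoRNA host gene gives off 2 kinds of product. Its introns are trimmed to snoRNAs, which guide the chemical modification of ribosomal RNA, or to scaRNAs, the related guides for spliceosomal RNAs in Cajal bodies. The spliced exons form a polyadenylated RNA that usually encodes no long protein, and for several hosts, Gas5 being the textbook case, this RNA is engaged by ribosomes and degraded by nonsense-mediated decay. Many hosts are transcribed from start sites with a 5′ terminal oligopyrimidine tract (5′ TOP), a run of C and T that ties an RNA's translation to mTOR signalling. The poly(A) libraries described here measure the exonic RNA, and the small RNAs themselves are largely outside their reach.

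Snhg20 has 3 isoforms of note, and the junction at the end of the first exon tells them apart, which is why it is shown here (GRCm38, GENCODE M21, plus strand of chromosome 11). The lower-case letters are the last 30 bases of that exon, common to all 3, and the capitals are the 30 bases that follow it in each RNA.
Snhg20-202: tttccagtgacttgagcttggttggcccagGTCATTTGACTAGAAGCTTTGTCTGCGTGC
Snhg20-203: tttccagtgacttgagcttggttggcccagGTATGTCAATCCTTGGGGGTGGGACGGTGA
Snhg20-206: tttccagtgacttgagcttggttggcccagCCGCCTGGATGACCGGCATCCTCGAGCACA
Snhg20-202 is the spliced RNA of 600 bases in 2 exons, and its capitals begin at chr11:117078776. Snhg20-203 is a single exon of 2153 bases that reads straight into the intron at chr11:117077203. Snhg20-206 has 3 exons and 1090 bases, with a middle exon at chr11:117077843-117078339.

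The guide RNA of this locus is Gm26083, annotated as a scaRNA of 193 bases at chr11:117077243-117077435, inside the intron that Snhg20-202 removes and Snhg20-203 keeps. It is printed as the only small RNA annotated within Snhg20.
Gm26083: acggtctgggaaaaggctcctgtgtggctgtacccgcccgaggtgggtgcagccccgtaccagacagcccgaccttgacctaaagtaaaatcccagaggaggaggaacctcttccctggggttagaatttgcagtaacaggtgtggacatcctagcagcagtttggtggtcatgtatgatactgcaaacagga

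**Figure D1:**
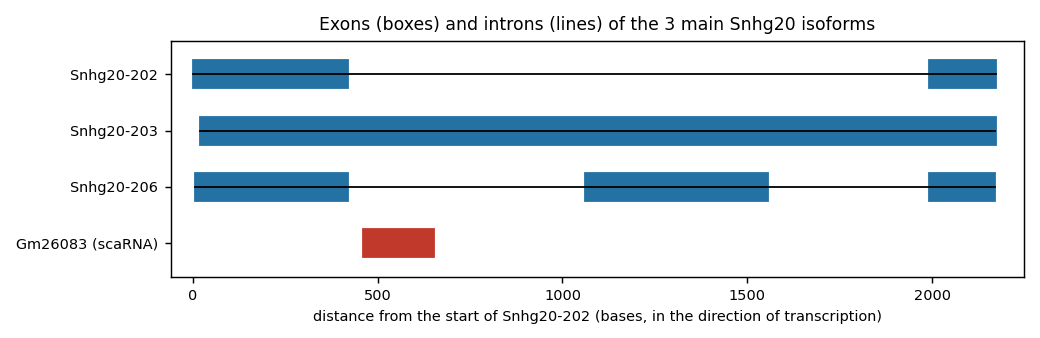
Exon structure of Snhg20-202, Snhg20-203 and Snhg20-206 and the position of the scaRNA Gm26083. The x axis gives bases from the start of Snhg20-202, boxes are exons and lines are introns; Gm26083 lies within the single exon of Snhg20-203 and within an intron of the other isoforms drawn.

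The start sites of 9 of the 10 genes are in the RefSeq promoter table (GRCm38.p6), with 11 windows in all, and Snhg6 is not among them. Each line below holds 30 bases before and 30 bases from the start, and the capitals mark the longest run of C and T within 20 bases on either side of it. They are shown because a pyrimidine run at the start is a feature known from many host genes, and of the 2 windows each for Gas5 and Snhg17 the one with the run at its start is given.
Snhg20: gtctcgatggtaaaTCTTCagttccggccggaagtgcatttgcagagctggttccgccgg
Gas5: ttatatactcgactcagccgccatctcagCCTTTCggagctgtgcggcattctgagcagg
Snhg8: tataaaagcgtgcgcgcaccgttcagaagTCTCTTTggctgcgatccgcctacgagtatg
Snhg12: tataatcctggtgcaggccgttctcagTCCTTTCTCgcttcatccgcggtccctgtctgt
Snhg1: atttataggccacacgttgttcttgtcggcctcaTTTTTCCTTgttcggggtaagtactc
Snhg5: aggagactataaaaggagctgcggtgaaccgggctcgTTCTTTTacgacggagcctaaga
Snhg17: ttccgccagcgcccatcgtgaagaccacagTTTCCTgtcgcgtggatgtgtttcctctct
Snhg3: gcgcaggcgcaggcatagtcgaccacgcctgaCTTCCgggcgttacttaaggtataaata
Snhg15: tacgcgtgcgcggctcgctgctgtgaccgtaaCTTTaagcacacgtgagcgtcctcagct
The Snhg12 and Snhg1 runs were 9 bases long, a length reached in 10.7% of the 32851 RefSeq promoter windows. The runs of Snhg8 and Snhg5 were 7 bases long, a length reached in 24.3% of windows. Those of Gas5 and Snhg17 in the windows shown were 6 bases long, a length reached in 37.5%. In the window not shown, the longest run of Gas5 had 3 bases, reached in 93.7%. That of Snhg17 had 7 bases, reached in 24.3%, and opened 20 bases before the start. The longest run had 5 bases in Snhg20 and in Snhg3, equal to the median of all windows and reached in 57.5% of them, and 4 bases in Snhg15, reached in 78.6%. The run of Snhg20 ended before the start, while that of Gas5 in the window shown opened 1 base before it and read across it.

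Motifs were searched in the whole windows of 300 bases (250 before the start and 50 after). CACGTG, which reads the same on both strands, was in 7.2% of all windows and in 1 of the 11, that of Snhg15. The NF-κB consensus, searched on both strands, was in 4.5% of all windows and in 1 of the 11, that of Snhg8. TATAAA, searched on the transcribed strand only and 16 to 45 bases before the start, was in 2.1% of all windows and in 2 of the 11, those of Snhg8 and Snhg5, where it is visible in the lines above. None of the 3 motifs was found in the Snhg20 window. A match or its absence is a description of these letters only.

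Snhg20 (ENSMUSG00000086859, chr11:117076008-117078955, plus strand) was the member whose level differed most between libraries. Its level was 14.6, 24.4 and 15.5 FPKM in Con, 11.8, 4.82 and 3.94 in TNF-α, and 21.3, 19.1 and 21.3 in TNF-α+WBT. All 3 TNF-α libraries lay below all others, while the ranges of Con and TNF-α+WBT overlapped. The group means were 18.2 ± 5.42 in Con, 6.85 ± 4.30 in TNF-α and 20.6 ± 1.30 in TNF-α+WBT (SD, n = 3).

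On the scale of log2(FPKM + 0.1), Snhg20 was 1.52 lower in TNF-α than in Con (difference −1.52, SE 0.37) and 1.74 higher in TNF-α+WBT than in TNF-α (SE 0.37). Between TNF-α+WBT and Con the difference was 0.21 (SE 0.37). The mean of Con was 2.65 times that of TNF-α, and the mean of TNF-α+WBT was 3.00 times that of TNF-α. These are the values Snhg20 was chosen by, and no test is attached to them.

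Within the TNF-α group, library 1 at 11.8 FPKM stood well above the other two. When that library was left out, the difference from Con was −2.00 and that of TNF-α+WBT from TNF-α was 2.21. When TNF-α library 3 was left out, they were −1.22 and 1.43. The estimated number of fragments behind the gene was 81 to 436 per library, fewest in TNF-α library 3 and most in Con library 2.

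The ratio of the highest to the lowest library was 6.19 for Snhg20. Among the 11837 genes above 1 FPKM in all 9 libraries the median ratio was 1.32, and 99.8% of these genes had a smaller ratio than Snhg20. Snhg20 was chosen on its differences between these libraries, so a high ratio follows from the choice and the rank is a description only. The other 9 members had ratios of 1.16 (Snhg6) to 2.07 (Snhg3).

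Most of the Snhg20 signal was the spliced Snhg20-202, with 78.5% of the gene's mean level over the 9 libraries. Its level was 10.7, 20.8 and 11.7 FPKM in Con, 8.64, 2.06 and 1.67 in TNF-α, and 17.5, 15.3 and 18.8 in TNF-α+WBT. The order of the groups was that of the gene, with no overlap between TNF-α and either other group.

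The unspliced Snhg20-203, which carries the scaRNA sequence, was at 3.19, 3.56 and 3.55 FPKM in Con, 1.57, 1.26 and 0.785 in TNF-α, and 2.74, 1.70 and 2.49 in TNF-α+WBT. It too was lowest in TNF-α, and here the TNF-α+WBT libraries also lay below all Con libraries. The spliced and the unspliced form were therefore both lower in the TNF-α group, and in TNF-α+WBT the spliced form overlapped Con whereas the unspliced form did not.

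Snhg20-206, the isoform with the middle exon, ran the other way. It was at 0.519, 0 and 0.148 FPKM in Con, 1.37, 1.41 and 1.49 in TNF-α, and 0.597, 1.93 and 0 in TNF-α+WBT. The TNF-α libraries lay above all Con libraries and within the range of TNF-α+WBT. As a share of the gene, Snhg20-206 made up 11.6%, 29.3% and 37.7% in TNF-α, against 0% to 3.5% in Con and 0% to 10.1% in TNF-α+WBT. At most 41.6 estimated fragments stood behind it in any library, and how fragments of the common exons are divided between isoforms is itself an estimate. The 4 other isoforms of Snhg20 each averaged under 0.1 FPKM.

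**Figure D2:**
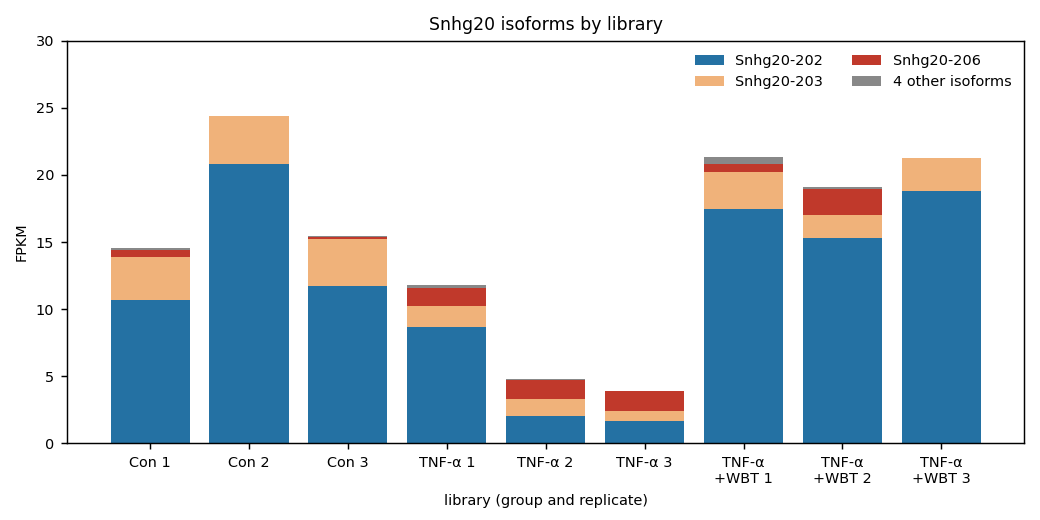
FPKM of the Snhg20 isoforms in each library, stacked (y axis, FPKM; x axis, group and replicate). Snhg20-202 is at 2.06 and 1.67 FPKM in TNF-α libraries 2 and 3, whereas Snhg20-206 is between 1.37 and 1.49 FPKM in all 3 TNF-α libraries.

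The scaRNA gene Gm26083 had a row of its own with 0.00188 to 0.0439 FPKM, far under the level of its host. Values for genes this short in poly(A) libraries are not measures of the mature small RNA.

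Over all 9 libraries the 10 hosts differed widely in level, and FPKM, being scaled to length, can be set side by side between genes. Gas5, the host named for its rise in growth-arrested cells, was highest at 156 FPKM on average (148 to 177), with every library above every library of the next gene. Snhg8 (71.0 FPKM) and Snhg6 (65.6 FPKM) followed and overlapped, Snhg8 being the higher in 5 of 9 libraries. Snhg1 (53.6 FPKM) lay below Snhg6 in all 9 libraries, and every later member lay below Snhg1 in all libraries. Snhg15 (22.1), Snhg12 (21.9), Snhg17 (18.6), Snhg5 (15.8), Snhg20 (15.2) and Snhg3 (13.9 FPKM) formed the lower tier, and each overlapped its neighbour in that order.

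**Figure D3:**
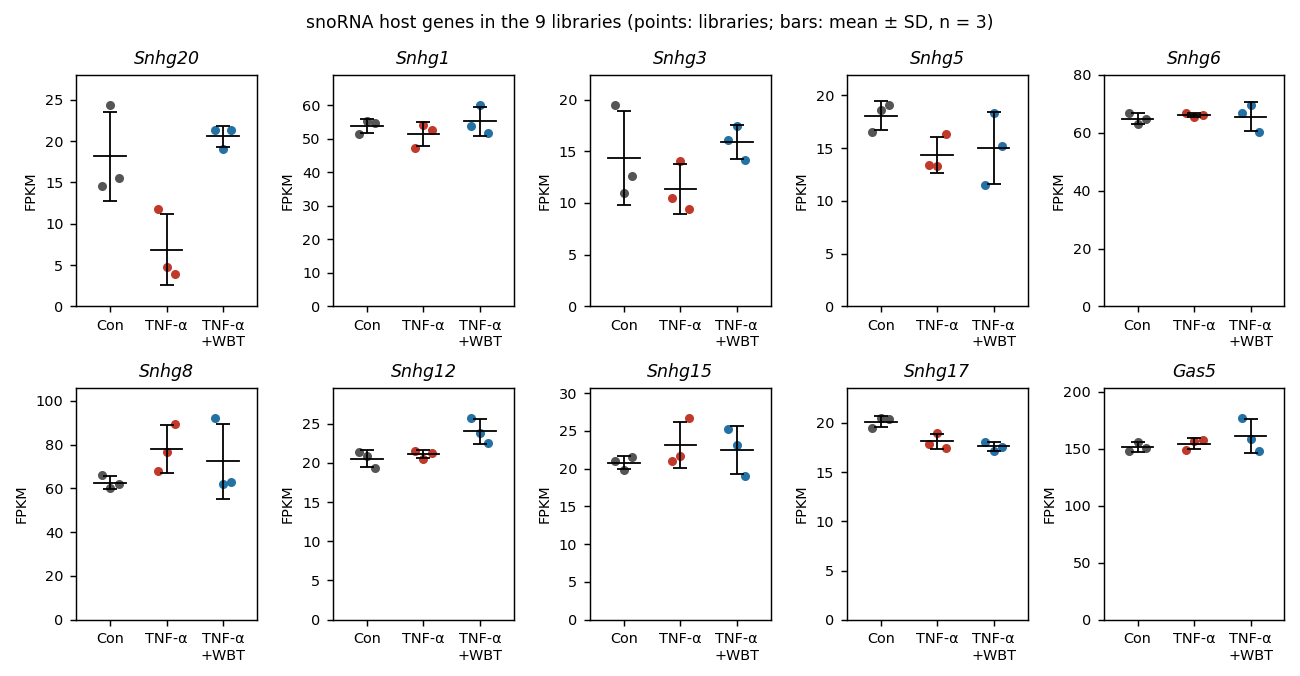
FPKM of the 10 host genes in the 9 libraries (y axis from 0, one panel per gene; points are libraries, bars are the mean and SD of 3). The TNF-α libraries of Snhg20 (3.94 to 11.8 FPKM) lie below the other 6, whereas the groups of Gas5, Snhg6, Snhg1 and Snhg15 overlap.

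With TNF-α, none of the 9 members other than Snhg20 passed the test. Of all genes tested, 4.86% passed an adjusted p of 0.05 (limma, Benjamini-Hochberg over all genes) and 2.42% passed the study's own rule of a p under 0.05 before adjustment and more than a 2-fold change. The counts among the 9 members were 0 and 0, and 1 (Snhg17) had an unadjusted p under 0.05, beside 16.1% of all genes. The groups did not overlap in 3 of the 9 (Snhg5, Snhg8 and Snhg17), beside 21.2% of all genes. The median difference of the 9 was 0.03 on the log2 scale, against 0.003 for all genes.

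Snhg17, host of 3 snoRNAs, had the smallest p of the 9 with TNF-α. It was at 19.5, 20.5 and 20.4 FPKM in Con and 17.9, 19.0 and 17.5 in TNF-α. Every TNF-α library lay below every Con library, yet the difference was only −0.15 (SE 0.05, adjusted p = 0.129 by limma).

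Snhg8, host of Snora24, was at 66.0, 60.0 and 61.9 FPKM in Con and at 67.9, 76.7 and 89.6 in TNF-α. The groups did not overlap, and the difference was 0.31 (SE 0.16, adjusted p = 0.387 by limma). Snhg5, host of Snord50a and Snord50b, was at 16.5, 18.6 and 19.1 FPKM in Con and 13.4, 13.3 and 16.3 in TNF-α, with a difference of −0.33 (SE 0.16, adjusted p = 0.358 by limma). Its lowest Con library and highest TNF-α library were close to each other.

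Snhg3, host of the Snora73 pair, had the widest spread in Con of the 9, with 19.5, 11.0 and 12.6 FPKM. Its TNF-α libraries were at 10.5, 14.1 and 9.42 and its TNF-α+WBT libraries at 16.1, 17.4 and 14.2 FPKM. The TNF-α+WBT libraries lay just above the TNF-α libraries, with a difference of 0.50 (SE 0.22, adjusted p = 0.788 by limma). For TNF-α against Con it was −0.32 (SE 0.22, adjusted p = 0.562 by limma), and Con and TNF-α overlapped. The annotated span of Snhg3 overlaps Rcc1 and Gm17300, so fragments of these genes and of Snhg3 may not be fully told apart.

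When WBT was added to TNF-α, 0 of the 9 members passed, in a comparison where 0.00393% of all genes (a single gene) did. By the study's rule the count was 0 of 9, beside 1.12% of all genes, and only Snhg12 had an unadjusted p under 0.05 (limma), beside 6.31%. The groups did not overlap in 2 of the 9 (Snhg3 and Snhg12), beside 11.0% of all genes. The median over the 9 was 0.04, against −0.002 for all genes.

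Snhg12, host of Snora16a, Snora44, Snora61 and Snord99, was at 21.5, 20.5 and 21.2 FPKM in TNF-α and at 25.7, 23.8 and 22.5 in TNF-α+WBT. In Con it was at 21.4, 20.9 and 19.3 FPKM. The TNF-α+WBT libraries lay above all 6 others, while Con and TNF-α overlapped. The difference from TNF-α was 0.19 (SE 0.06, adjusted p = 0.674 by limma) and that from Con 0.22 (SE 0.06, adjusted p = 0.0928 by limma).

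Between TNF-α+WBT and Con, 0 of the 9 passed, beside 3.71% of all genes. Snhg12 and Snhg17 had an unadjusted p under 0.05 (limma), beside 14.7%. By the study's rule 0 of 9 passed, beside 2.29%, and the groups did not overlap in 2 of the 9 (Snhg12 and Snhg17), beside 19.5%. The median over the 9 was 0.09, against 0.000 for all genes. Snhg17 was at 18.1, 17.2 and 17.6 FPKM in TNF-α+WBT, below all Con libraries, with a difference of −0.19 (SE 0.05, adjusted p = 0.0691 by limma). That p depended on the setting: it was 0.0488 when the test was limited to genes averaging 1 FPKM or more and 0.0468 after quantile normalization, with differences of −0.19 and −0.21.

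The remaining members had overlapping groups in every comparison. Gas5 was at 148, 156 and 151 FPKM in Con, 149, 157 and 158 in TNF-α, and 177, 159 and 148 in TNF-α+WBT. The 3 groups overlapped, and the 95% interval of the TNF-α difference was −0.12 to 0.17 on the log2 scale. Gas5 hosts 10 annotated small RNA genes, the most of the set, and its span overlaps Zbtb37.

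Snhg6, host of Snord87, had the smallest ratio of highest to lowest library of the 10, with 66.9, 63.1 and 64.8 FPKM in Con, 66.9, 65.5 and 66.0 in TNF-α, and 67.0, 69.7 and 60.2 in TNF-α+WBT. The 95% intervals were −0.09 to 0.15 for TNF-α against Con and −0.14 to 0.11 for TNF-α+WBT against TNF-α. Differences of the size seen for Snhg20 lie outside both. The span of Snhg6 overlaps Mcmdc2.

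Snhg1, which hosts 8 snoRNAs, was at 51.4, 55.4 and 54.7 FPKM in Con, 47.4, 54.2 and 52.8 in TNF-α, and 53.9, 60.2 and 51.9 in TNF-α+WBT. Snhg15, host of Snora9, was at 21.0, 19.8 and 21.5 FPKM in Con, 21.0, 21.7 and 26.7 in TNF-α, and 25.2, 23.1 and 19.0 in TNF-α+WBT. Neither gene differed in any comparison by more than 0.15 on the log2 scale.

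**Figure D4:**
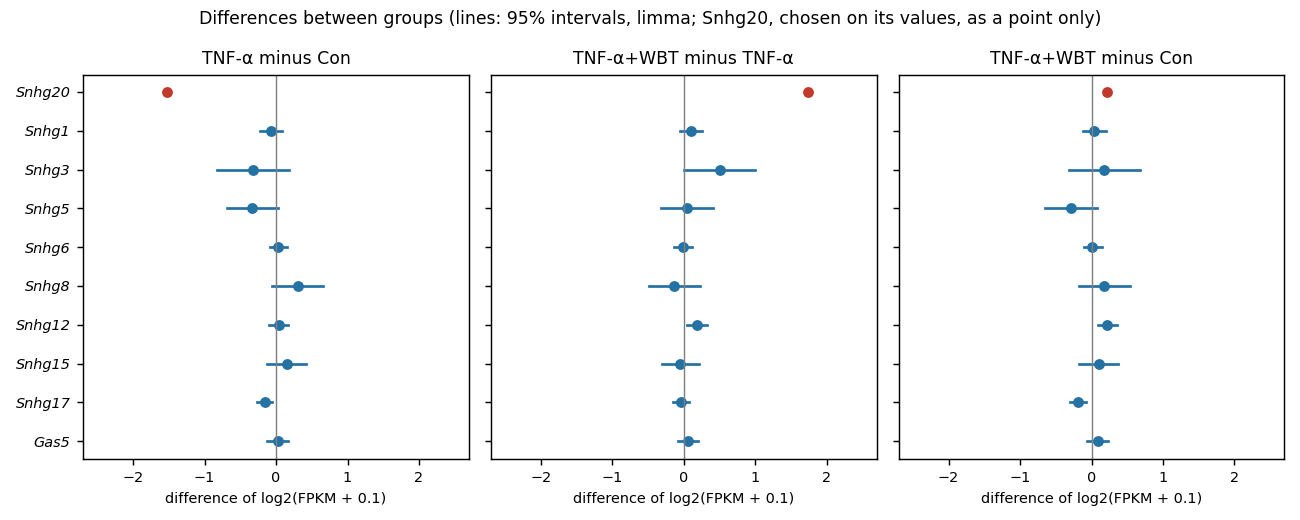
Differences of log2(FPKM + 0.1) between groups for the 10 genes (x axis, log2 units; lines are 95% intervals from limma, and Snhg20 is drawn as a point because it was chosen on these values). Differences of the 9 other members run from −0.33 to 0.50, while Snhg20 lies at −1.52, 1.74 and 0.21.

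Of the isoforms of the 9 members, 82 were tested among 80149 transcripts, and 0 passed in any comparison. Over all transcripts, 0.635% passed for TNF-α against Con, 0.0424% for TNF-α+WBT against TNF-α, and 0.455% for TNF-α+WBT against Con. At an unadjusted p under 0.05 there were 4, 4 and 6 of the 82 (limma), beside 8.14%, 5.17% and 7.67% of all transcripts.

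Snhg8-203 was among them and was singled out after its values were seen. It was at 3.57, 6.21 and 3.81 FPKM in Con, 9.54, 10.2 and 10.7 in TNF-α, and 3.17, 6.67 and 3.99 in TNF-α+WBT. The TNF-α libraries lay above all 6 others. The difference was 1.19 for TNF-α against Con (SE 0.29, adjusted p = 0.228 by limma) and −1.19 for TNF-α+WBT against TNF-α (SE 0.29, adjusted p = 0.650 by limma), so it did not pass among all transcripts in either comparison.

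Snhg8-203 keeps an intron of 156 bases near the 3′ end (chr3:123507661-123507816, GRCm38) that the main isoform Snhg8-201 removes. The snoRNA of the gene, Snora24, lies in another intron (chr3:123507937-123508066). Snhg8-201, with 85.4% of the gene's mean level, was at 58.0, 50.8 and 53.3 FPKM in Con and 54.1, 62.1 and 75.1 in TNF-α, and these groups overlapped. The group mean of Snhg8-203 was 7.2% of that of the gene in Con, 13.0% in TNF-α and 6.4% in TNF-α+WBT. By library, its share was 5.4%, 10.4% and 6.2% in Con, 14.0%, 13.3% and 11.9% in TNF-α, and 3.4%, 10.7% and 6.4% in TNF-α+WBT.

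**Figure D5:**
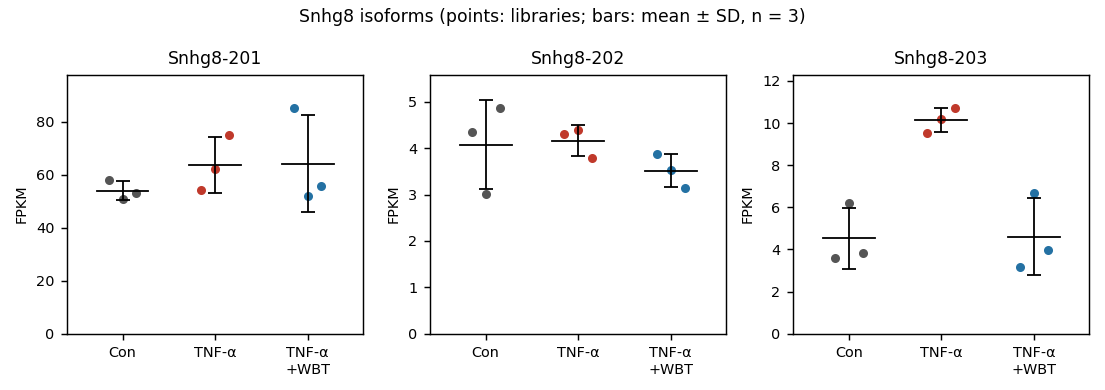
FPKM of the 3 Snhg8 isoforms by group (y axis from 0; points are libraries, bars are the mean and SD of 3). Snhg8-203 lies between 9.54 and 10.7 FPKM in TNF-α and between 3.17 and 6.67 in the other libraries.

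For Snhg5 the annotated isoforms accounted for only 11.7% to 43.3% of the gene's level, depending on the library. The remaining 7.53 to 14.1 FPKM were not in any GENCODE M21 isoform of the gene. Which transcripts hold them was not traced, so no isoform of Snhg5 is described. In the other 9 genes the isoforms summed to the gene.

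The other genes of the snoRNA pathway gave few calls. Of 12 further noncoding hosts, 9 had values under the symbol searched. Of these, 7 were tested and 0 passed in any comparison (limma). At an unadjusted p under 0.05 there were 1, 0 and 0 (limma), beside 16.1%, 6.31% and 14.7% of all genes. The order is TNF-α against Con, TNF-α+WBT against TNF-α and TNF-α+WBT against Con. Zfas1 (115 FPKM), Epb41l4aos (45.5 FPKM) and Dancr (4.93 FPKM) had the highest levels among them, and their differences with TNF-α were −0.05, 0.00 and 0.01. Differences of the 7 with TNF-α ran from −0.1 to 0.78, the 0.78 being of a gene under 1 FPKM in every library. For TNF-α+WBT against TNF-α they ran from −0.49 (Dancr, adjusted p = 0.816 by limma) to 0.32. Snhg14 and Rian were listed at 0 in every library.

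Protein-coding hosts carry snoRNAs in the introns of translation genes. Of 45 tested, 0 passed in any comparison (limma, with 14, 1 and 5 at an unadjusted p under 0.05, in the same order, beside the 16.1%, 6.31% and 14.7% of all genes). With TNF-α, 35 of 45 had a lower fitted value than in Con, beside 49.3% of all genes, and the median was −0.07 against 0.003. In TNF-α+WBT, 10 of 45 were lower than in TNF-α, beside 50.6%, and 30 of 45 lower than in Con, beside 50.0%, with the groups shared between these comparisons. Eef2, the elongation factor, was at 2913 ± 51.3 FPKM in Con and 2672 ± 23.9 in TNF-α (SD, n = 3), a difference of −0.12 with an adjusted p = 0.157 by limma. Rps12, a protein of the small ribosomal subunit, differed by −0.11 (adjusted p = 0.362 by limma).

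Of 20 snoRNP proteins and assembly factors, which package snoRNAs, 0 passed in any comparison (limma). At an unadjusted p under 0.05 there were 7, 0 and 5 (limma), in the same order, beside 16.1%, 6.31% and 14.7% of all genes. With TNF-α, 16 of 20 had a lower fitted value than in Con, beside 49.3% of all genes, with a median of −0.07. The count was again 16 of 20 for TNF-α+WBT against the same Con libraries, beside 50.0%, with a median of −0.08. Nop56, Nop58 and Dkc1 are also among the protein-coding hosts above, so these lists share genes. Fbl, the methyltransferase of box C/D particles, was at 59.8 ± 1.63 FPKM in Con, 55.6 ± 0.562 in TNF-α and 57.4 ± 1.20 in TNF-α+WBT (SD, n = 3), with an adjusted p = 0.145 for TNF-α by limma. Nop56, a core protein of the same particles, differed by −0.32 between TNF-α+WBT and Con (adjusted p = 0.112 by limma).

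In nonsense-mediated decay, the pathway that degrades several host RNAs, 1 of 19 genes passed with TNF-α, a share near the 4.86% of all genes. Smg6, the endonuclease of the pathway, fell from 14.9 ± 0.410 FPKM in Con to 12.5 ± 0.199 in TNF-α (SD, n = 3), a difference of −0.25 with an adjusted p = 0.0112 by limma, or 0.0668 without the intensity trend. It was at 13.6 ± 0.299 FPKM in TNF-α+WBT, and that difference from TNF-α did not pass (0.11, adjusted p = 0.719 by limma). Among 13 genes of mTOR signalling and 5′ TOP control, only Mlst8, a subunit of both mTOR complexes, passed, higher in TNF-α+WBT than in Con by 0.37 (adjusted p = 0.0468 by limma), beside 3.71% of all genes. It was 0.32 higher in TNF-α than in Con (adjusted p = 0.0669 by limma), and TNF-α+WBT differed from TNF-α by 0.05 (adjusted p = 0.962 by limma). The call against Con was lost under 15 of 19 alternatives, among them leaving out any 1 library of Con or TNF-α+WBT, with adjusted p = 0.0512 to 0.146 by limma where it was lost.

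Across libraries, the Pearson correlation of the 9 other members with Snhg20 ran from −0.54 (Snhg8) to 0.41 (Snhg3), given as a description over 9 libraries that fall into 3 groups. Among the 11837 genes above 1 FPKM throughout, those most alike were Zfp688 (r = 0.960), Nr3c1 (0.938), Rora (0.924), Uri1 (0.920) and Pfkfb2 (0.916), again over 9 libraries. Uri1, a prefoldin-like protein, was at 23.6, 21.8 and 24.4 FPKM in Con, 20.0, 14.7 and 13.9 in TNF-α, and 22.9, 21.1 and 24.8 in TNF-α+WBT. As for Snhg20, its TNF-α library 1 was the highest of the 3. These genes were picked by their correlation with Snhg20 over the same libraries, so such a likeness follows from the choice. With TNF-α, the glucocorticoid receptor gene Nr3c1 measured 17.3, 12.1 and 11.3 FPKM, so library 1 fell within the Con range of 16.4 to 18.7.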

How the data were processed

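FPKM per gene (56289) and per transcript (144726) in 9 libraries were deposited. According to the study's scheme, the authors made these FPKM values with HISAT2, StringTie and Ballgown; versions and genome build are not given in the sources used here. GENCODE M21 (GRCm38) gave symbols to 98.0% of genes, positions and isoforms, and RefSeq (GRCm38.p6) gave the promoter sequences. The members and gene lists were chosen with earlier results of these data known.

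limma 3.58.1 in R 4.3.3 was run on log2(FPKM + 0.1) of all genes, or transcripts, detected above 0 FPKM in 3 or more libraries, in 1 model of the 3 groups with an intensity trend, and p-values were adjusted over the whole table. The pseudocount of 0.1 understates changes of low genes. Exact permutation of 3 against 3 libraries cannot give a p below 0.1 and was not used. Depth was estimated from 10606 genes with a single transcript over 1000 bases. The model was tested on simulated data. Figures and summaries used Python 3.11.15, pandas 2.3.3, numpy 2.4.6 and matplotlib 3.10.9.

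Named genes were all members, at most 4 per list (those that passed with the smallest p, otherwise those with the highest mean FPKM), and the 5 genes with the highest Pearson correlation to Snhg20. Alternatives covered the pseudocount, the filter, the trend, 2-group models, normalization, sums of transcripts, a replicate block and each library left out. Any isoforms of Snhg5 outside GENCODE M21 were not analysed here.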

Additional observations from a re-analysis of the deposited data

How the results depend on the processing

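Under 19 alternatives, Snhg20 kept its direction. The differences were −2.00 to −1.22 for TNF-α against Con, 1.43 to 2.21 for TNF-α+WBT against TNF-α, and 0.08 to 0.45 for TNF-α+WBT against Con. Snhg20 was chosen on these values, and all its TNF-α libraries lay below the others. Leaving out a library or changing the pseudocount therefore could not change the sign in the comparisons with the TNF-α group. These ranges describe the size of the differences only. Of 513 values of the 9 other members, 497 kept their direction and their side of the threshold, 14 changed sign without being called, and 2 became calls. Both calls were Snhg17 in TNF-α+WBT against Con (1 member called with the filter at a mean of 1 FPKM and 1 with quantile normalization). With TNF-α against Con, Gas5 was at −0.00341 after quantile normalization and Snhg12 ran from −0.01 to 0.07 when single libraries were left out. With TNF-α+WBT against TNF-α, Snhg5 was at −0.33 from the sum of transcript values. That sum takes in annotated isoforms only, which held 11.7% to 43.3% of the level of Snhg5, so it covers a part of the gene. Leaving out single libraries gave −0.11 to 0.22 for Snhg5, −0.13 to 0.07 for Snhg15, −0.01 to 0.12 for Gas5 and −0.06 to 0.05 for Snhg6. With TNF-α+WBT against Con it gave −0.03 to 0.07 for Snhg6, −0.00281 to 0.28 for Snhg8 and −0.02 to 0.08 for Snhg1. The cause was not tested. Libraries with the same replicate number did not deviate together (correlations −0.0502 to 0.0976), and with the replicate block 0 members were called in each comparison.

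Outside the members, Smg6 stayed called under 18 of 19 alternatives and Mlst8 under 4 of 19, while Snhg8-203 was called under 0 of 18 in either comparison with the TNF-α group.

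The estimated 81 to 436 fragments limit the precision for Snhg20 and more so for its minor isoforms.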

Other observations

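Of the 34 snoRNA and scaRNA genes annotated inside the 10 hosts, 10 had a mean above 1 FPKM and the other 24 lay between 0 and 1 FPKM. They are 60 to 205 bases long, and 31 of them lie in an exon of at least 1 host isoform, so that fragments of unspliced or partly spliced host RNA can be assigned to them. The highest was Gm22357 in Gas5, at 25.8 to 38.0 FPKM, followed by Gm24452 in Snhg1, at 0.0969 to 14.2 FPKM. Snora24 in Snhg8 was at 5.88 to 10.3 FPKM. These values were not used in any comparison.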
